A study of Mus musculus with 8 samples.

Results

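The enzymes that make, use and break down ethanolamine phosphate and phosphatidylethanolamine were examined in the retina of Lpcat1 knockout mice. The group held 9 genes of the 20018 with a probe on the array, represented by 14 of 55681 probes. The members were Etnppl and 8 enzymes that make or use its substrate, phosphatidylethanolamine or the phosphatidylserine it can be made from, namely Etnk1, Etnk2, Pcyt2, Cept1, Pemt, Pisd, Ptdss1 and Ptdss2. Etnppl was picked because its increase in the knockout was among the largest on the array. Its values are therefore given as a description, with no test. The other 8 genes were picked for their place in the pathway, although with earlier results of these data known.

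Total RNA of the whole retina was compared at 2 weeks of age between 4 wildtype (WT) and 4 knockout (KO) samples of Lpcat1, the gene of lysophosphatidylcholine acyltransferase 1, which adds a fatty acid to lysophosphatidylcholine. The strain was labelled C57BL/6 in both genotypes. According to the study's methods, the knockout line came from the C57BL6/N background and was crossed to C57BL6/J so that animals homozygous for the rd8 allele of Crb1 could be left out. The deletion was not limited to a cell type. The labels do not say whether each sample was 1 animal, so p-values measure only the spread between these samples, which may be technical. All 8 arrays lay on 1 slide, and since the rows of the slide were filled by genotype, row and genotype cannot be told apart. The Lpcat1 probe fell by 0.46 on the log2 scale in KO (SE 0.04, limma adjusted p = 0.0036). Whether this probe targets the deleted sequence is not given in the sources used here, so the signal that remained in KO does not tell how much intact transcript was left. The signal at the 75th percentile of each array was 638.4 to 737.8, no spot was saturated (0 spots), and the precision of every value below is limited by the number of arrays.

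Phosphatidylethanolamine is one of the main phospholipids of cell membranes. It is abundant in the disc membranes of photoreceptor outer segments, where it carries docosahexaenoic acid and can react with retinal. Cells make it along separate routes. In the CDP-ethanolamine route, ethanolamine is phosphorylated to ethanolamine phosphate, activated to CDP-ethanolamine and joined to diacylglycerol. In the other route, phosphatidylserine is made by base exchange and decarboxylated in mitochondria. Etnppl (ethanolamine-phosphate phospho-lyase) takes ethanolamine phosphate out of the first route and splits it into ammonia, phosphate and acetaldehyde, and in the brain its transcript is known mainly from astrocytes.

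The sequence just upstream of Etnppl is shown beside that of Etnk1, because these genes code for enzymes that remove and make ethanolamine phosphate. RefSeq start sites (GRCm38.p6) matched 7 of the 9 members, with 12 windows of 250 bases. The window before the first Etnppl start was chr3:130617198-130617447 (plus strand), and that before the Etnk1 start was chr6:143166980-143167229 (plus strand). Both are printed 5′ to 3′, and capitals mark CpG dinucleotides.
Etnppl: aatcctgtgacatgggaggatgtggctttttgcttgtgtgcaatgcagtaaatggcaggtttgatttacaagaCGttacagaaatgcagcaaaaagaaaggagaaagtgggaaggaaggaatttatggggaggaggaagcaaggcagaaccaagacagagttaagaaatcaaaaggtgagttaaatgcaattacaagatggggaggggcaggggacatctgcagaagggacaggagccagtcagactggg
Etnk1: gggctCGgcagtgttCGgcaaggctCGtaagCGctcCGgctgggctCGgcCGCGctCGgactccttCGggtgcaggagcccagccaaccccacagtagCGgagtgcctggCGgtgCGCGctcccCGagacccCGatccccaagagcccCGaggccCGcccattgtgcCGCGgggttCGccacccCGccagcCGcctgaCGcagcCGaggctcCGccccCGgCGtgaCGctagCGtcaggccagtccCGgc
The Etnppl window had a GC content of 46.0% and 1 CpG, whereas the Etnk1 window had 74.8% and 31 CpGs. Over all 32851 windows of this length the median was 52.4% GC and 6 CpGs, and 18.8% of windows had no more CpGs than Etnppl. The second Etnppl window, chr3:130617325-130617574, which overlaps the first, had 55.6% GC and also 1 CpG. The Etnk1 window was the richest in GC and CpGs of the 12 member windows. Cept1 windows had 0, 21 and 20 CpGs, Pisd windows 3 and 26, Pemt windows 2 and 1, and the Etnk2 and Ptdss2 windows 15 and 17. Few CpGs were thus not particular to Etnppl among the members. Neither Etnppl window held, on either strand, any of the 7 motifs searched. These were AP-1 (TGANTCA, in 6.75% of all windows), CRE (TGACGTCA, 1.55%), EGR (GCGNGGGCG, 4.70%), C/EBP (TTGCNNAA, 9.56%), STAT (TTCNNNGAA, 7.02%), TATAAA (12.4%) and CCAAT (33.8%). The Etnk1 window held 1 match, to C/EBP. These matches describe the letters of the windows only.

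Etnppl was higher in every KO retina than in any WT retina. In the following, a level is the log2 processed signal of a probe minus the 75th percentile of its array, and a difference is KO minus WT of such levels. The Etnppl level (probe A_51_P391616, the only probe of the gene) was -3.34, -3.33, -3.24 and -3.32 in WT replicates 1 to 4 and -1.84, -1.34, -1.29 and -1.04 in KO replicates 1 to 4. The groups were far apart, and the KO retinas were spread more widely than the WT retinas. The mean was -3.31 ± 0.04 in WT and -1.38 ± 0.34 in KO (SD, n = 4 each). The difference was 1.93 (SE 0.15), or 3.81-fold. The WT levels spanned 0.098 and the KO levels 0.80, and KO replicate 1 was the lowest of the KO retinas. The gap between the highest WT and the lowest KO level was 1.40, which is 2.64-fold.

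Before any scaling, the Etnppl spot gave processed signals of 66.0, 71.4, 73.2 and 70.4 in WT and 182.4, 291.9, 261.9 and 327.8 in KO. All 8 spots were well above background. The Etnppl difference was among the largest increases of the 33972 probes tested, where no exact rank is given because some of its neighbours were not above background in WT. Of these probes, 1.38% were called higher in KO, that is, by more than 1.2-fold with a limma adjusted p under 0.05, and 0.0677% were called and more than 2-fold higher. All 4 KO values lay above all 4 WT values in 6.04% of the tested probes. These shares are given as background only, since Etnppl was chosen on this contrast. With normexp correction of the background, which here also added 50 to every signal, the difference was 1.23. Under the other scalings and filters it was 1.93 to 1.97, and leaving out each array in turn gave 1.82 to 2.09.

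**Figure D1:**
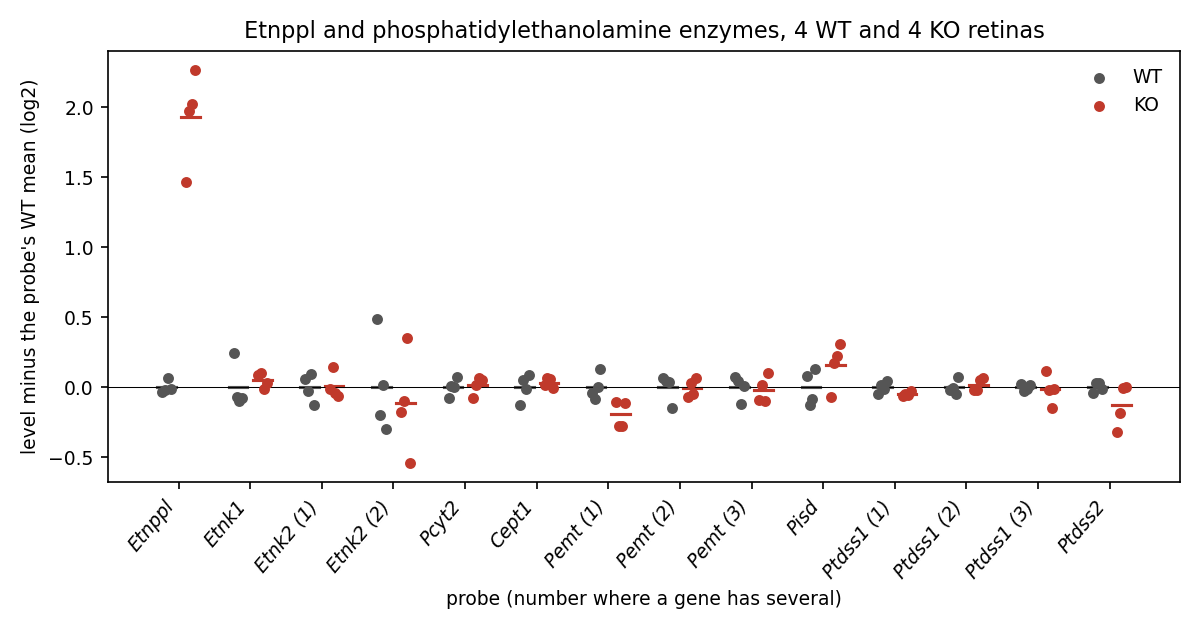
Level of each probe of the 9 genes on each array minus the mean of the 4 WT arrays of the same probe (log2, vertical axis), with 4 WT points in grey, 4 KO points in red and short lines for group means; numbers tell apart probes of a gene in the order of their mean signal. Etnppl lies 1.47 to 2.26 above its WT mean in the KO retinas, whereas the KO means of the other probes lie between -0.19 and 0.16.

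The other 8 enzymes were not called in either direction by limma (0 of 8 genes and 0 of their 13 probes). Over all tested probes 1.54% were called lower and 2.92% in either direction. Among all 14939 genes tested, 2.2% had a probe called higher and 1.77% a probe called lower. At an unadjusted p under 0.05, 1 of the 8 genes was lower (Pemt) and 0 were higher, where 17.5% of all genes had a lower and 12% a higher probe (23.8% of all probes in either direction). By the brightest probe of each gene, 5 differences were positive and 3 negative (4 and 4 with normexp correction, where the sign of Etnk2 turned), with a median of 0.0083 and a range of -0.19 to 0.16. Over all tested probes the median difference was -0.04. All 14 probes of the group were well above background on all 8 arrays, so no member was lost to the filter on dim probes. In 1 of the 13 probes the genotypes did not overlap, against 17.5% of all tested probes.

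The kinases that make ethanolamine phosphate, the substrate of Etnppl, were examined next. Etnk1, the widely expressed ethanolamine kinase, had levels of 0.27, -0.05, -0.08 and -0.06 in WT and 0.11, 0.12, 0.01 and 0.05 in KO. The genotypes overlapped, and WT replicate 1 stood above the other WT retinas. The Etnk1 difference was 0.052 (SE 0.08, limma adjusted p = 0.734), and its 95% interval ran from 0.91-fold to 1.18-fold. Without WT replicate 1 the Etnk1 difference was 0.13 (limma adjusted p = 0.140). Etnk2, the ethanolamine kinase known best from liver and reproductive tissues, had 2 probes. The brighter one (A_51_P238183) read -1.42, -1.52, -1.39 and -1.61 in WT and -1.50, -1.34, -1.53 and -1.55 in KO. The genotypes overlapped, with a difference of 0.0046 (SE 0.07, limma adjusted p = 0.974) and an interval of 0.90-fold to 1.11-fold. The dimmer Etnk2 probe (A_55_P1979019) spread more, from -3.74 to -2.96 in WT and from -3.98 to -3.09 in KO, and its interval of 0.65-fold to 1.31-fold left a wider range.

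Pcyt2 makes CDP-ethanolamine from CTP and ethanolamine phosphate and is regarded as the rate-setting enzyme of the route. Its level was 4.76, 4.85, 4.84 and 4.91 in WT and 4.76, 4.85, 4.90 and 4.89 in KO. The genotypes overlapped, with a difference of 0.012 (SE 0.05, limma adjusted p = 0.906) and an interval of 0.93-fold to 1.09-fold. Cept1, the choline/ethanolamine phosphotransferase that completes the route, read 2.04, 2.22, 2.15 and 2.25 in WT and 2.18, 2.23, 2.22 and 2.15 in KO. Its difference was 0.033 (SE 0.05, limma adjusted p = 0.748), with an interval of 0.94-fold to 1.11-fold. For Pcyt2, Cept1 and the brighter Etnk2 probe a change of 1.2-fold in either direction thus lay outside the 95% interval. It also lay outside that of Etnk1 (0.91-fold to 1.18-fold), with the high WT replicate 1 included.

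Pemt, which methylates phosphatidylethanolamine to phosphatidylcholine and is known mainly as a liver enzyme, had 3 probes. The brightest (A_55_P1970860) read -0.15, -0.19, -0.11 and 0.02 in WT and -0.22, -0.38, -0.39 and -0.22 in KO. All 4 KO values lay below all 4 WT values, although KO replicates 1 and 4 came close to WT replicate 2. A separation in this direction was seen in 11.4% of all tested probes. Its difference of -0.19 (SE 0.07, limma adjusted p = 0.118) did not pass the threshold, and its interval ran from 0.79-fold to 0.97-fold. The other 2 Pemt probes overlapped between genotypes. A_55_P1967295 differed by -0.0066 (limma adjusted p = 0.958) and A_55_P1970846 by -0.018 (limma adjusted p = 0.888).

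The phosphatidylserine route was represented by its base-exchange enzymes and the decarboxylase. Ptdss1, which makes phosphatidylserine from phosphatidylcholine, had 3 probes, and the brightest (A_55_P2164778) read 3.10, 3.16, 3.13 and 3.19 in WT and 3.08, 3.10, 3.09 and 3.12 in KO. KO replicates 1 to 3 were below all WT retinas, though KO replicate 2 (3.096) only narrowly below WT replicate 1 (3.099). KO replicate 4 was among the WT retinas. The difference was -0.050 (SE 0.04, limma adjusted p = 0.438), with an interval of 0.91-fold to 1.02-fold. The other 2 Ptdss1 probes differed by 0.017 (A_51_P442053) and -0.017 (A_55_P1954461), both overlapping between genotypes. Ptdss2, which makes phosphatidylserine from phosphatidylethanolamine, read 0.35, 0.42, 0.42 and 0.38 in WT. In KO it read 0.07, 0.21, 0.38 and 0.40. KO replicates 1 and 2 were below all WT retinas and KO replicates 3 and 4 were among them. The Ptdss2 difference was -0.13 (SE 0.07, limma adjusted p = 0.340), with an interval of 0.81-fold to 1.03-fold. Without KO replicate 1 it was -0.065.

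Pisd, the mitochondrial decarboxylase that turns phosphatidylserine into phosphatidylethanolamine, had the largest positive difference of the 8 genes. It read 4.17, 3.96, 4.00 and 4.22 in WT and 4.02, 4.26, 4.31 and 4.40 in KO. KO replicates 2 to 4 were above all WT retinas, whereas KO replicate 1 was among them. It differed by 0.16 (SE 0.09, limma adjusted p = 0.343), and the interval of 0.96-fold to 1.30-fold did not exclude a change over 1.2-fold.

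**Figure D2:**
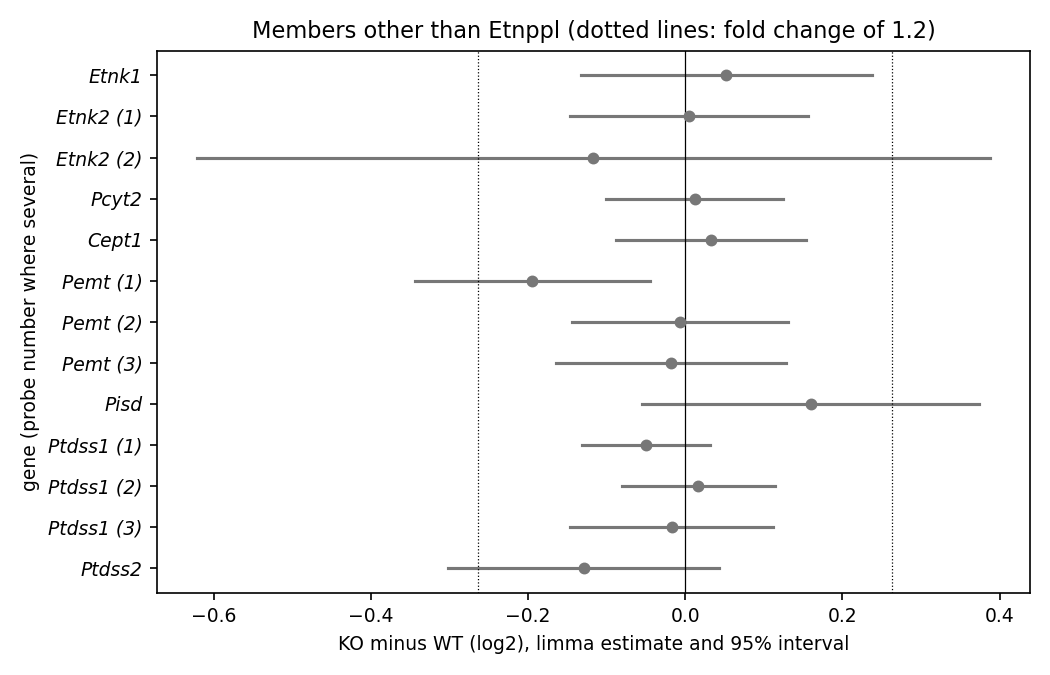
KO minus WT difference (log2, horizontal axis) of each probe of the 8 enzymes other than Etnppl, as the limma estimate (point) with its 95% interval (line, 4 arrays per genotype); dotted lines mark a fold change of 1.2 in either direction. The only interval that lies to 1 side of 0 is that of the brightest Pemt probe, from -0.34 to -0.04, and it was not called.

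Where a gene had several probes, their differences were set against each other within arrays. In 5 pairs of probes of Etnk2, Pemt and Ptdss1, the change of the brightest probe differed from that of another by -0.19 to 0.12. None of the 5 pairs passed a two-sided exact permutation test after Benjamini-Hochberg adjustment (adjusted p = 0.238 to 0.686), and 0 pairs had an unadjusted p under 0.05. The lowest unadjusted exact p was 0.0571, where 0.0286 is the smallest that 4 arrays per genotype allow. A single pair at that smallest value would reach an adjusted p of 0.143, so these tests could hardly have passed. The pair of Pemt probes A_55_P1970860 and A_55_P1967295 differed by -0.19 in their change (exact adjusted p = 0.238).

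To place Etnppl among the genes around it, a wider list of 41 genes was used, covering other sources and fates of ethanolamine phosphate and neighbouring lipids. The array named 39 of them, and 36 genes (45 probes) were tested. None was called higher (0 of 36) and 2 were called lower, against 2.2% and 1.77% of all genes. At an unadjusted p under 0.05, 5 of the 36 genes had a higher and 10 a lower probe, against 12% and 17.5% of all genes. Of the 36 differences 16 were positive and 20 negative, with a median of -0.02 and a range of -0.46 to 0.47.

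The other makers and users of ethanolamine phosphate did not pass the test at a fold change of 1.2. Sgpl1, the sphingosine-1-phosphate lyase that releases ethanolamine phosphate from sphingolipids, had the lowest level in WT replicate 1 (1.29) and otherwise read 1.45 to 1.48 in WT and 1.37 to 1.46 in KO. Its difference was -0.0060 (SE 0.05, limma adjusted p = 0.956). Sphk1, the sphingosine kinase one step upstream of Sgpl1, read 2.39 to 2.46 in WT and 2.54 to 2.63 in KO. All its KO values were above all WT values, which held for 6.04% of all tested probes. Its difference of 0.16 (SE 0.04, limma adjusted p = 0.047) was under the fold limit. Sphk1 was added after its values were seen, as were Sgpp2 and Aldh2 below, so their p-values are not read as tests.

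Sgpp2, a sphingosine-1-phosphate phosphatase, read -2.64 to -2.44 in WT and -1.62, -2.34, -2.21 and -2.04 in KO. The genotypes did not overlap, and KO replicate 1 was the highest of the KO retinas, where Etnppl had its lowest KO level. The difference of 0.47 (SE 0.14, limma adjusted p = 0.094) was not called, although limma with a trend and robust eBayes called it. Phospho1, a phosphatase of ethanolamine phosphate and choline phosphate, was dim. It was well above background on 4 WT and 2 KO arrays and read -4.43, -4.51, -4.27 and -4.24 in WT and -4.11, -5.09, -4.99 and -4.43 in KO. The genotypes overlapped, and since it passed the filter through WT alone, its difference is not read as a test.

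The kinases and transferases that the ethanolamine and choline branches share were also compared. Chka and Chkb, the choline kinases, differed by 0.13 (SE 0.07, limma adjusted p = 0.314) and -0.093 (SE 0.04, limma adjusted p = 0.186). Selenoi, the ethanolamine phosphotransferase that acts beside Cept1, differed by 0.040 (SE 0.03, limma adjusted p = 0.524). Phykpl, the closest relative of Etnppl, a lyase of phosphohydroxylysine, read -0.05 to 0.00 in WT and -0.10 to 0.03 in KO. Its difference was -0.014 (SE 0.04, limma adjusted p = 0.860), with an interval of 0.93-fold to 1.06-fold, and its dimmer probe differed by -0.14 (limma adjusted p = 0.198). Aldh2, a mitochondrial enzyme that oxidises acetaldehyde, a product of Etnppl, read 0.17, 0.22, -0.40 and 0.32 in WT and 0.29, 0.51, 0.52 and 0.58 in KO. WT replicate 3 was far below the other WT retinas. Its difference of 0.39 (SE 0.15, limma adjusted p = 0.163) came to 0.24 without that array.

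The 2 genes called lower were Slc44a1 and Tmem86a. Slc44a1, a choline transporter also known to carry ethanolamine, had 3 probes, and the brightest (A_52_P84901) read 0.51, 0.35, 0.29 and 0.27 in WT and 0.15, -0.11, -0.24 and -0.20 in KO. The genotypes did not overlap, with KO replicate 1 nearest to WT. KO minus WT was -0.46 (SE 0.09, limma adjusted p = 0.034). The other Slc44a1 probes were lower too, by -0.26 (A_55_P2048041, limma adjusted p = 0.033, under the fold limit) and -0.20 (A_55_P2081790, limma adjusted p = 0.151). The Slc44a1 call was lost when any 1 array other than KO replicate 1 was left out, with limma adjusted p up to 0.092. It was also lost with no filter on dim probes (limma adjusted p = 0.098) and with the methods' unmoderated test (adjusted p = 0.058).

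Tmem86a, a lysoplasmalogenase that acts on ether lipids of the ethanolamine class, read 2.72, 2.61, 2.64 and 2.69 in WT and 2.41, 2.23, 2.22 and 2.20 in KO. Again the genotypes did not overlap and KO replicate 1 was the nearest to WT. The Tmem86a difference was -0.40 (SE 0.06, limma adjusted p = 0.013). This call was kept in all 8 fits without 1 array (limma adjusted p up to 0.048) and lost with no filter on dim probes (limma adjusted p = 0.054).

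**Figure D3:**
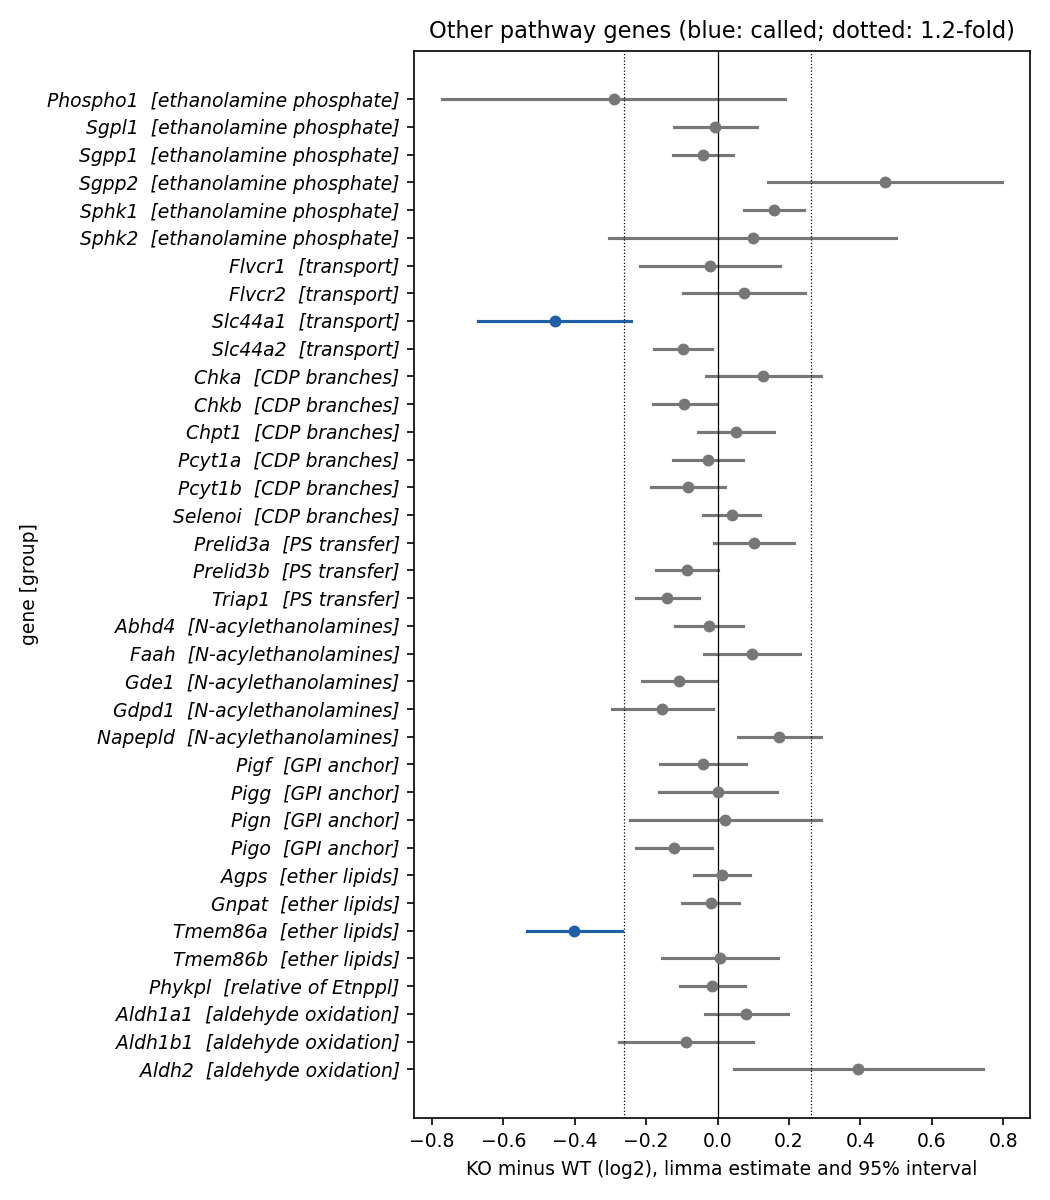
KO minus WT difference (log2, horizontal axis) of the brightest probe of each of the 36 tested genes of the wider list, with the 95% interval of limma (line, 4 arrays per genotype) and the role group in brackets; blue marks called genes and dotted lines a fold change of 1.2. Slc44a1 (-0.46) and Tmem86a (-0.40) are the called genes, and both are lower in KO.

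The genes with the pattern most like that of Etnppl were taken from 19688 probes with a symbol. After the WT mean of each probe was taken off, likeness was the root mean square difference from Etnppl over the 8 arrays. This measure named 5 genes, in alphabetical order Cebpe, Cst7, Edn2, Fam107a and Fosb. Edn2 (0.37 on the log2 scale), Fam107a (0.44) and Fosb (0.45) were well above background on all 8 arrays, where the median probe was at 1.40. Being chosen for the pattern, they are described with no test. Cst7 codes for cystatin F, a protease inhibitor of immune cells, Cebpe for a myeloid transcription factor, Edn2 for endothelin-2, Fam107a for an actin-associated protein and Fosb for an AP-1 subunit. In WT, Cebpe exceeded the background limit on 0 of 4 arrays and Cst7 on 1 of 4, so their WT values are mostly bounds, their distance from Etnppl is not given and their place among the 5 is uncertain. In Etnppl, Cst7, Edn2 and Fam107a, KO replicate 1 had the lowest KO level, and the same held for Cebpe. Fosb was lowest in KO replicate 2. Fam107a read -3.49 to -2.98 in WT and -2.38, -1.74, -1.76 and -1.50 in KO, which gave the same order of lowest and highest KO retina as for Etnppl. Fosb read -2.93 to -2.48 in WT and -1.52 to -0.93 in KO.

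**Figure D4:**
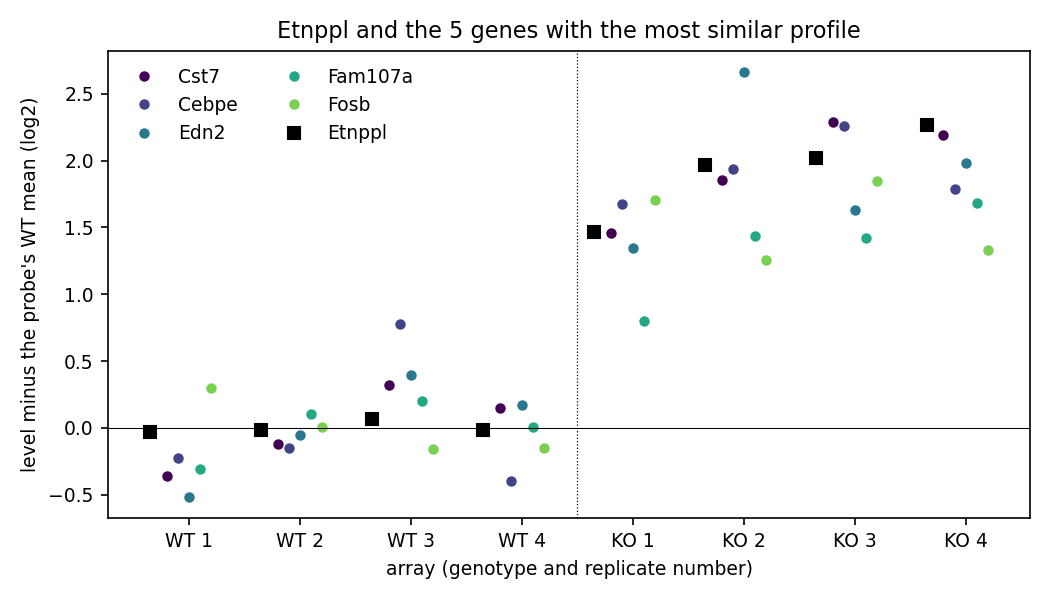
Level of Etnppl (black squares) and of the 5 genes closest to it (coloured points) on each of the 4 WT and 4 KO arrays, minus the WT mean of the same probe (log2, vertical axis); WT values of Cebpe and most of those of Cst7 were not well above background. On KO 1 Etnppl is 1.47 above its WT mean, its lowest KO value, and on KO 4 it is 2.26 above, its highest.

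Summed markers of some retinal cell types also differed between genotypes. In bulk RNA, fewer cells of a type and less RNA per cell cannot be told apart. Sums of linear signal, scaled to the 75th percentile of the array, were compared over each marker list. The astrocyte list (Gfap, Aldh1l1, S100b, Pdgfra, Pax2 and Gja1) summed to 6.32 to 7.52 in WT and 8.04 to 8.24 in KO, without overlap, and the ratio of the means was 1.17. Aldh1l1 and S100b made up most of this sum. Of its 6 genes, 5 had positive differences and 0 were called, against 2.2% of all genes called higher. At an unadjusted p under 0.05, 3 were higher, against 12% of all genes. Gfap differed by 0.51 (SE 0.20, limma adjusted p = 0.174), Aldh1l1 by 0.21 (SE 0.04, limma adjusted p = 0.024, under the fold limit) and Gja1 by -0.00033 (SE 0.09). S100b differed by 0.24 (SE 0.08, limma adjusted p = 0.127). Pdgfra differed by 0.088 (SE 0.07, limma adjusted p = 0.472) and Pax2 by 0.13 (SE 0.17, limma adjusted p = 0.686). How these differences relate to the Etnppl difference of 1.93 was not tested.

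Among the other lists, the Müller glia sum was 239.9 to 248.2 in WT and 279 to 288.2 in KO, with 2 of 8 genes called higher, against 2.2% of all genes. The microglia sum was 9.93 to 10.67 in WT and 12.9 to 13.2 in KO, with 5 of 9 genes called higher. The cone sum was 1.18 times that of WT, with 2 of 6 genes called higher, and the amacrine and horizontal cell sum 1.105 times that of WT, with 0 of 6 genes called. The rod sum was lower in KO, at 1017 to 1064 against 1198 to 1243 in WT, with 3 of 8 genes called lower, against 1.77% of all genes. The endothelial sum was 0.915 times that of WT, with 0 of 5 genes called. The ganglion cell sum was 1.03 times that of WT without overlap, with 0 of 6 genes called, and those of bipolar cells, pigment epithelium and lens overlapped. Best1 of the pigment epithelium and Lim2 and Mip of the lens were above the background limit on at most 1 array per genotype. The part of these shifts in the values of Etnppl, Slc44a1 and Tmem86a was not tested.

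**Figure D5:**
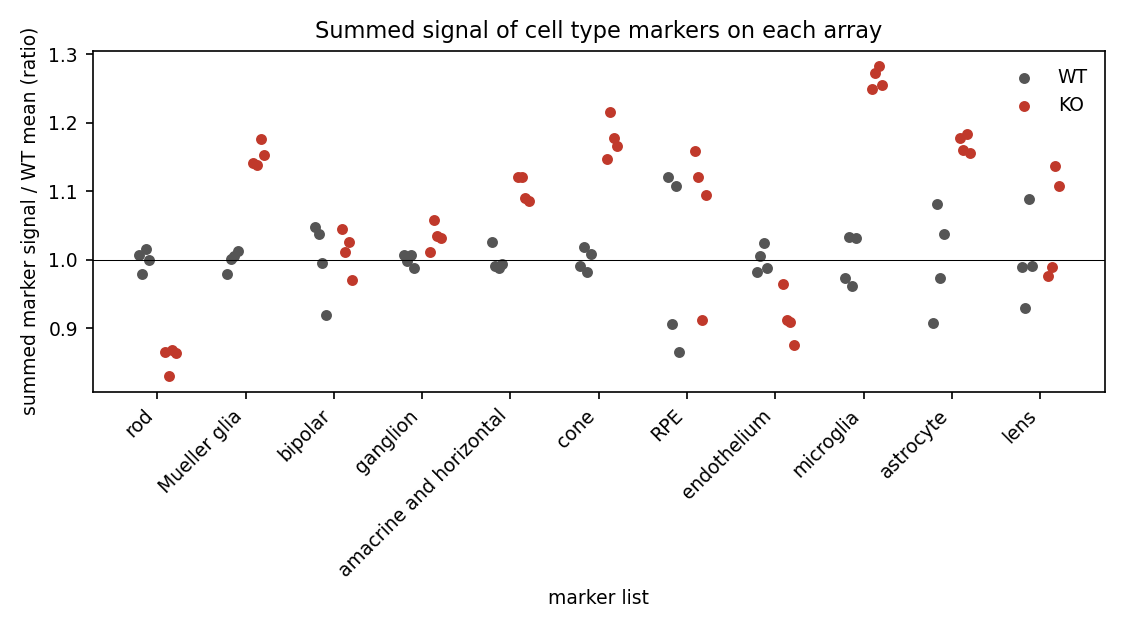
Summed linear signal of each marker list on each array divided by the mean of the 4 WT arrays (ratio, vertical axis), with WT in grey and KO in red. The rod sums are lower in all 4 KO arrays (0.857 of WT in the mean), whereas the microglia (1.27), cone (1.18), astrocyte (1.17) and Müller glia (1.15) sums are higher.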

How the data were processed

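The labels gave each sample its genotype and replicate number. Whole-retina RNA (4 WT and 4 KO) was labelled with Cy3 and hybridised to Agilent mouse arrays. Feature Extraction 10.7.1.1 was used by the authors for quantification, and the deposited scanner files hold background-subtracted intensity on a linear scale. The series table deposited by the authors holds log2 values after a 75th percentile shift, with column medians of -3.30 to -3.20. These values differed from the levels used here by a constant of 0.123 to 0.148 per array, and 0 per-sample columns were unused.

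For the levels, the 75th percentile was taken over 59305 non-control spots, and outlier spots (86 to 147 per array) and control spots (3671) were left out. A RefSeq table named 26413 probes (47.4%) by transcript accession. Its assembly (GRCm38.p6) differs from that of the array design, so no probe was placed on the genome. The promoter windows and their coordinates came from RefSeq start sites of GRCm38.p6 alone. The 33972 probes tested exceeded the background limit on all 4 arrays of WT, KO or both, and the brightest probe stood for its gene.

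KO was compared with WT by limma 3.58.1 (lmFit and eBayes, R 4.3.3, no covariates), and p-values were adjusted over all probes tested by the Benjamini-Hochberg method. Probes past an adjusted p of 0.05 and 1.2-fold were called, and a gene with any called probe was called. Pairs of probes were compared by exact permutation (two-sided). The fits were tested on simulated data with the means and spread of these probes. Of 50 probes changed by 0.3 on the log2 scale, limma called 12, and of 50 changed by 0.5 it called 31. It called 45 of 50 changed by 1 and 49 of 50 changed by 2. Changes of 0.3 to 0.5 were thus often missed. Named genes were all members, Lpcat1, the called genes of the wider list with Phykpl, Sgpl1, Chka, Chkb, Selenoi and Phospho1, and the 5 genes closest to Etnppl. Sphk1, Sgpp2 and Aldh2 were added after their values were seen. The members and lists were chosen with earlier results of these data known. The alternatives covered the scaling, background correction, filters, fit, thresholds, probe rule, replicate number as a block and leaving out each array.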

Additional observations from a re-analysis of the deposited data

Results flagged for a closer look

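In 46 groups of 4 samples checked for 1 sample far from the other 3, 4 groups had such a sample, and chance gives about 1 in 20. The Etnk1 level of WT replicate 1 was 0.27, where the nearest WT retina was at -0.05. The Sgpl1 level of WT replicate 1 was 1.29, where the nearest WT retina was at 1.45. The level of the Pemt probe A_55_P1967295 in WT replicate 4 was -2.25, where the nearest WT retina was at -2.07. The Tmem86a level of KO replicate 1 was 2.41, where the nearest KO retina was at 2.23.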

How the results depend on the processing

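The count of called genes among the 8 other enzymes was 0 under all 16 alternatives and in all 8 fits without 1 array. Of the 12 alternatives that apply to the Etnppl difference, normexp background correction with an added 50 moved it to 1.23, and the other 11 left it at 1.93 to 1.97. It was 1.82 to 2.09 without 1 array. No gene of the wider list was called higher, except 1 (Sgpp2) with a trend and robust eBayes and 2 (Aldh2 and Sgpp2) at an adjusted p under 0.5. The count called lower, 2, was 0 with no filter on dim probes, 0 at a fold change over 1.5, 3 at an adjusted p under 0.5 (with Phospho1, which passed the background filter through WT alone), 1 (Tmem86a) with the methods' t-test and 1 to 2 without 1 array. Differences near 0 changed sign with the scaling. Sgpl1 was 0.018 with quantile normalization, 0.011 with a median shift, 0.013 with the percentile of probes detected on all arrays, 0.016 with cyclic loess, 0.0032 with normexp and 0.0061 in the authors' values. In the same order without quantile normalization, Pemt probe A_55_P1967295 was 0.010, 0.013, 0.026, 0.0013 and 0.0055. Phykpl was 0.0024 with the median shift, 0.0049 with the percentile of detected probes and 0.0019 with loess. Pemt probe A_55_P1970846 was 0.00075 with that percentile, 0.023 with loess and 0.050 with normexp, and Ptdss1 probe A_55_P1954461 was 0.0020 with that percentile and 0.0036 with loess. Etnk2 was -0.014 with normexp and -0.056 as the mean of its probes. Without 1 array, the ranges that crossed 0 were -0.014 to 0.042 for Pcyt2, -0.0094 to 0.061 for Cept1, -0.041 to 0.036 for Etnk2, -0.27 to 0.046 for its dimmer probe, -0.049 to 0.014 for Sgpl1 and -0.036 to 0.0075 for Phykpl. They were -0.057 to 0.016 for Pemt probe A_55_P1967295, -0.059 to 0.0085 for A_55_P1970846 and -0.061 to 0.027 for the Ptdss1 probe. Without 1 array, Etnk1 was 0.020 to 0.13 and Ptdss2 -0.17 to -0.065. Chka was 0.072 without KO replicate 4 and Chkb -0.031 with normexp. Pcyt2 was 0.069 with quantile normalization, 0.069 with loess and 0.097 with normexp. The brightest Ptdss1 probe was -0.013 with quantile normalization and -0.011 with loess. Over the 16 alternatives Cept1 was 0.022 to 0.065 and Selenoi 0.040 to 0.073. The cause of these shifts was not tested.

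Over all probes, 992 were called (470 higher, 522 lower). The count was 246 with no filter, 660 with the median shift, 138 at a fold change over 1.5, 3136 at an adjusted p under 0.5, 701 with the methods' t-test, and 369 (without WT replicate 2) to 1183 (without KO replicate 1) without 1 array. The split was 563 higher and 372 lower with the percentile of detected probes, 629 and 341 with loess, 518 and 389 with quantile normalization and 439 and 274 with normexp. With replicate number as a replicate block, 395 probes were called, 0 of the other enzymes were called and the Etnppl difference stayed at 1.93. Samples of the same number correlated at 0.249, 0.069, 0.037 and 0.112, and each KO sample correlated best with the WT sample of its own number, as did 3 of the 4 WT samples with KO. The 4 same-number correlations were all positive, yet the main fits had no covariates and did not take the numbers as pairs. The count of called probes depends on this choice, with 992 without the block and 395 with it. Normexp was run on median spot signals. Phospho1 exceeded the background limit on 2 of 4 KO arrays, which limits its difference.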
